A study of Mus musculus with 6 samples.

Results

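Nuclear receptors are transcription factors that bind DNA directly and whose activity is, for many of them, set by a small lipophilic ligand such as a steroid, retinoic acid, thyroid hormone, vitamin D or an oxysterol. The 33 genes described here are superfamily members other than Pparg and the receptors best known from the circadian clock. They were taken by symbol: a row of the deposited table was used when its gene names, split at commas, held the symbol, and 32 of the 33 had a row among the 31097 rows of the table. Ppard was not analysed here.

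RNA was sequenced from 3T3-F442A cells, a mouse preadipocyte line that can be differentiated into fat cells, to ask how deletion of SWELL1 alters its transcripts. SWELL1, the product of Lrrc8a, forms part of the anion channel that opens when cells swell. The 3 SWELL1 KO libraries came from cells in which CRISPR/Cas9 had been used to knock out SWELL1, and the 3 WT libraries from the parental line with SWELL1 intact, and all cells were grown in RPMI with 10% FBS. The labels number the libraries as biological replicates. The number of KO clones and any differentiation step were not stated in the labels, and the sample names of the KO libraries alone carry a mark, D3, that no label explains. A difference between clones, or anything else that mark stands for, cannot be told apart from the genotype, and p-values measure only the spread between these libraries.

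Levels are in FPKM, which scales the fragments of a gene by transcript length and by the mapped total, a unit inferred from the submitters' use of Cufflinks and from the values. Depth was estimated from the lowest values at 18.4 to 26.0 M fragments in KO libraries and 17.1 to 20.8 M in WT libraries. The clone row AC166252.2 held 16.7% to 23.7% of the FPKM sum in KO libraries and 2.1% in WT replicate 2. A value of exactly 0 is not a safe zero in this table: 231 rows were at 0 in a library although another library of the same group reached 5 FPKM or more. The row that holds Lrrc8a also holds neighbouring genes, so the knockout was not checked from it here. Changes were tested with limma on log2(FPKM + 0.5) over the 10515 rows whose mean was 0.5 FPKM or higher, with Benjamini-Hochberg adjustment and a threshold of 0.05, and a log2 fold change is KO minus WT of those values, so that changes of scarce genes come out too small. Values after ± are SDs with n = 3 libraries per group.

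The labels call the line an adipocyte line, and the markers were those of preadipocytes or fibroblasts. Of 10 preadipocyte and fibroblast markers with a row 9 were at 1 FPKM or more, and the list summed to 7909 to 8073 FPKM in KO libraries and 7683 to 8547 FPKM in WT libraries. These overlapping sums held changes in both directions: of 9 tested, 4 were called higher, among them Fn1 at 1.97-fold, and 5 lower, among them Thy1 at 2.01-fold, Dlk1 at 1.72-fold and Pdgfra at 1.51-fold. All 9 were thus called, beside 65.2% of all rows tested. The 10 adipocyte markers with a row summed to 14.1 to 15.6 FPKM in KO libraries and 144 to 204 FPKM in WT libraries, most of the WT sum being Fabp4, while Lep was listed at 0 in all 6 libraries and Adipoq at 0.0443, 0 and 0 FPKM in KO libraries against 1.87, 1.55 and 1.26 in WT libraries. Of the 6 adipocyte markers tested 4 were called lower, Lipe was not called, and Plin4 was called higher, at 5.04, 5.21 and 5.06 FPKM in KO libraries, against 0, 1.74 and 0 FPKM in WT libraries. Of the lower ones, Adipoq, Plin1 and Pparg passed the filter at a mean of 0.5 FPKM only through their WT level. Their KO means were 0.0148, 0.101 and 0.127 FPKM. Of the defining markers of other cell types, Ucp1, Csf1r, Epcam, Myod1 and Myog were listed at 0 in every library. Other markers in the same lists had values above 0. The 7 osteoblast and chondrocyte markers with a row summed to 24.2 to 25.0 FPKM in KO libraries and 11.3 to 14.8 in WT libraries, the 6 endothelial markers to 2.1 to 2.45 in KO and 0.477 to 0.659 in WT, the 6 epithelial markers to 1.69 to 1.89 in KO and 4.38 to 4.49 in WT, and the 6 macrophage markers, mainly Cd14, to 20.1 to 30.6 in KO and 20.0 to 23.5 in WT. The 5 brown fat markers summed to 0.0917 to 0.0974 in KO and 0 to 0.0461 in WT libraries. The 4 skeletal muscle markers, only Tnnt1 being above 0, summed to 0.598 to 0.964 in KO and 0.256 to 0.464 in WT libraries. Of the tested markers of these other cell types, Tnnt1, Vwf, Krt8, Dmp1 and Sox9 were called higher and Krt7 and Lyz2 lower. Runx2 and Cd14 were not called. Tnnt1, Vwf, Krt8 and Dmp1 passed the filter only through their KO level, and Krt7 and Lyz2 only through their WT level. Sox9, a chondrocyte marker, averaged 13.5 FPKM in KO and 1.79 FPKM in WT libraries. The adipocyte, brown fat, endothelial, epithelial, skeletal muscle and osteoblast sums did not overlap between the groups, and their part in the receptor results below was not tested.

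Of the 32 receptor genes with a row, 16 reached a mean of 1 FPKM, and all 16 did so in both groups. Another 10 had some value below that level, and 6 were listed at 0 in all 6 libraries, namely Nr0b1, Rxrg, Rorb, Thrb, Pgr and Esrra. Among all 31097 rows, 32.7% reached a mean of 1 FPKM in a group, against 50.0% of the receptor rows. The zeros of Esrra need care, since a gene can be listed at 0 here through a failed estimate, and its exons share 73 bases with Trmt112 and 91 with the microRNA gene Mir6990 in the annotation.

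Receptor changes split between a few clear ones and many small ones. Of the 10515 rows tested, limma called 65.2%, with 28.5% higher and 36.7% lower in KO cells. The balance turned under rescaling, with 3500 rows higher and 3343 lower after median-ratio scaling and 3423 higher and 3386 lower after quantile normalization. Of the 17 receptor genes that passed the filter on low values, 2 were called higher (Nr2c1 and Nr3c2), 5 lower (Nr1h2, Rara, Rora, Vdr and Nr2c2) and 10 were not called, so that 41.2% of the 17 were called. Nr3c2 passed that filter only through its KO level, and without it 1 receptor gene was called higher. The median log2 fold change was 0.03 over these 17 and -0.07 over all rows tested. The groups did not overlap for 8 of the 17, or 47.1%, against 71.8% of all rows tested. In bulk RNA, fewer cells of a kind that expresses a receptor and less RNA per cell cannot be told apart.

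**Figure D1:**
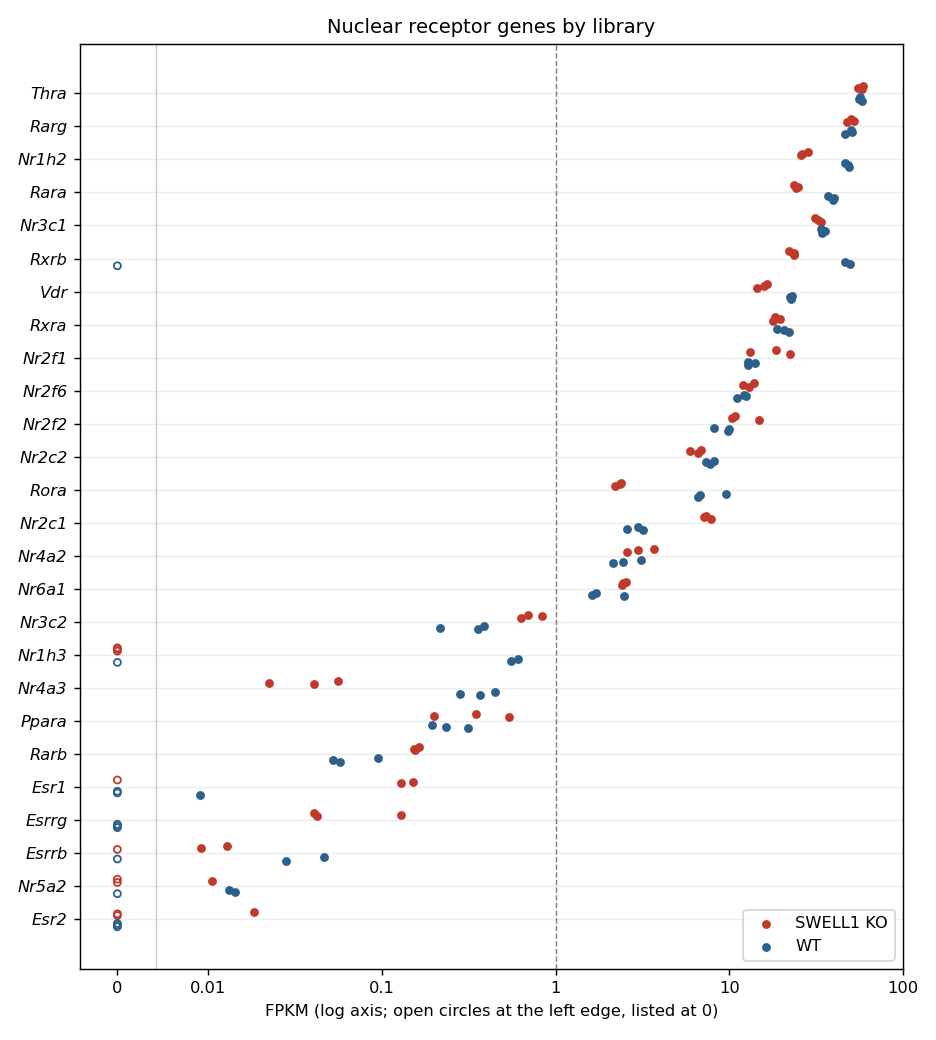
FPKM of the 26 receptor genes with a value above 0, on a log axis, with SWELL1 KO libraries in red above WT libraries in blue and 1 point per library. Open circles at the left edge are libraries listed at 0, and the dashed line marks 1 FPKM, which 16 genes reached.

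In order of level among the 33 genes described here, the most abundant transcript in KO cells was Thra at 57.6 ± 2.18 FPKM. Next came Rarg (50.1 ± 2.34), Nr3c1 (32.4 ± 1.43), Nr1h2 (26.8 ± 1.37) and Rara (24.1 ± 0.65). Then came Rxrb (23.2 ± 0.87), Rxra (18.7 ± 0.92) and Nr2f1 (18.1 ± 4.62). Among these neighbours the library ranges overlapped for Rara and Rxrb and for Rxra and Nr2f1. In WT cells the order was Thra at 56.8 ± 1.31 FPKM, Rarg (49.2 ± 2.12), Rxrb (46.6 and 49.8 in the libraries with a value), Nr1h2 (48.0 ± 1.33), Rara (39.0 ± 1.71), Nr3c1 (34.5 ± 0.87), Vdr (22.7 ± 0.35) and Rxra (20.5 ± 1.69). There the ranges of Rarg, Rxrb and Nr1h2 overlapped. Among the 33 genes Thra and Rarg led in both groups. Nr1h2, Rara and, where it had a value, Rxrb stood above the glucocorticoid receptor gene Nr3c1 in WT cells and below it in KO cells. Outside the 33, the receptor genes Nr4a1 and Nr1d1 averaged 124 and 84.7 FPKM in WT cells, above Thra. In KO cells they averaged 30.1 and 7.95 FPKM, below Thra. Rxrb, which has a 0 in WT, was left out of the sum over all members. Receptor transcripts then came to 296, 284 and 295 FPKM in KO replicates 1, 2 and 3. WT replicates 1, 2 and 3 summed to 329.8, 332 and 326 FPKM, and the groups did not overlap. These sums and the subfamily sums below use the deposited scale. Median-ratio scaling moved the median log2 fold change of all rows from -0.07 to 0.01, and whether the sums stay apart after rescaling was not tested.

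The retinoid receptors comprise the retinoic acid receptors, which bind all-trans retinoic acid, and the retinoid X receptors, which are the shared partners of the retinoic acid, thyroid hormone, vitamin D, LXR and PPAR receptors. Rara (chromosome 11, 98927818 to 98974942, GRCm38) was at 24.1, 24.8 and 23.5 FPKM in KO replicates 1, 2 and 3 and at 39.8, 40.2 and 37.1 FPKM in WT replicates 1, 2 and 3. Every KO library lay below every WT library, by 1.62-fold in the means (log2 fold change -0.68, SE 0.047, limma adjusted p = 7.1e-05). Rarg (chromosome 15, 102234938 to 102257517) was at 47.8, 52.5 and 50.2 FPKM in KO libraries, against 46.7, 50.6 and 50.1 FPKM in WT libraries. The ranges overlapped, and the log2 fold change was 0.03 with a 95% interval of -0.10 to 0.16 (limma adjusted p = 0.67). Rarg was called higher under quantile normalization, with a log2 fold change of 0.22.

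Rarb, itself a classical target of retinoic acid, was scarce. It stood at 0.156, 0.154 and 0.163 FPKM in KO libraries, against 0.0578, 0.0521 and 0.0955 FPKM in WT libraries, so that the groups did not overlap, but its mean was below the filter and it was not tested. If all fragments came from the longest annotated transcript, these values would rest on about 9.3 to 12.4 fragments in KO libraries and 3.1 to 6.2 in WT libraries. Its exons also share 1793 bases with the oppositely transcribed Top2b, whose row was at 37.8 to 40.0 FPKM in KO and 33.5 to 35.4 FPKM in WT libraries, and the sources used here do not state whether counting used strand.

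Rxra was at 17.9, 19.7 and 18.5 FPKM in KO libraries, against 22.2, 20.6 and 18.8 FPKM in WT libraries, with overlapping ranges (log2 fold change -0.13, 95% interval -0.31 to 0.05, limma adjusted p = 0.168). Rxrb was at 23.6, 23.7 and 22.2 FPKM in KO replicates 1, 2 and 3, while WT replicate 1 was listed at 0 and WT replicates 2 and 3 were at 49.8 and 46.6 FPKM. With the 0 taken as a value Rxrb was not called (log2 fold change 1.16, SE 1.83, limma adjusted p = 0.601). With that 0 treated as missing, an alternative chosen after seeing the data, it was lower in KO (log2 fold change -1.04, SE 0.056, limma adjusted p = 8.6e-05), and leaving out WT replicate 1 gave the same fold change with an adjusted p of 0.000217. The direction for Rxrb therefore rests on how WT replicate 1 is read. Rxrg was listed at 0 throughout.

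In 3 of the 4 subfamilies compared, the shares of the members did not overlap between KO and WT libraries, the retinoid X receptors being read without WT replicate 1; the COUP transcription factors overlapped. Rara made up 33.5%, 32.0% and 31.8% of the FPKM summed over Rara, Rarb and Rarg in KO replicates 1, 2 and 3, against 46.0%, 44.2% and 42.5% in WT replicates 1, 2 and 3. The 3 retinoic acid receptors together summed to 74.4 ± 2.73 FPKM in KO cells and 88.3 ± 2.29 FPKM in WT cells, with no overlap. Rxra was 43.2%, 45.4% and 45.5% of Rxra plus Rxrb in KO libraries and 29.3% and 28.8% in WT replicates 2 and 3. In those libraries the sum of Rxra and Rxrb was 41.5, 43.5 and 40.6 FPKM in KO and 70.4 and 65.4 FPKM in WT.

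**Figure D2:**
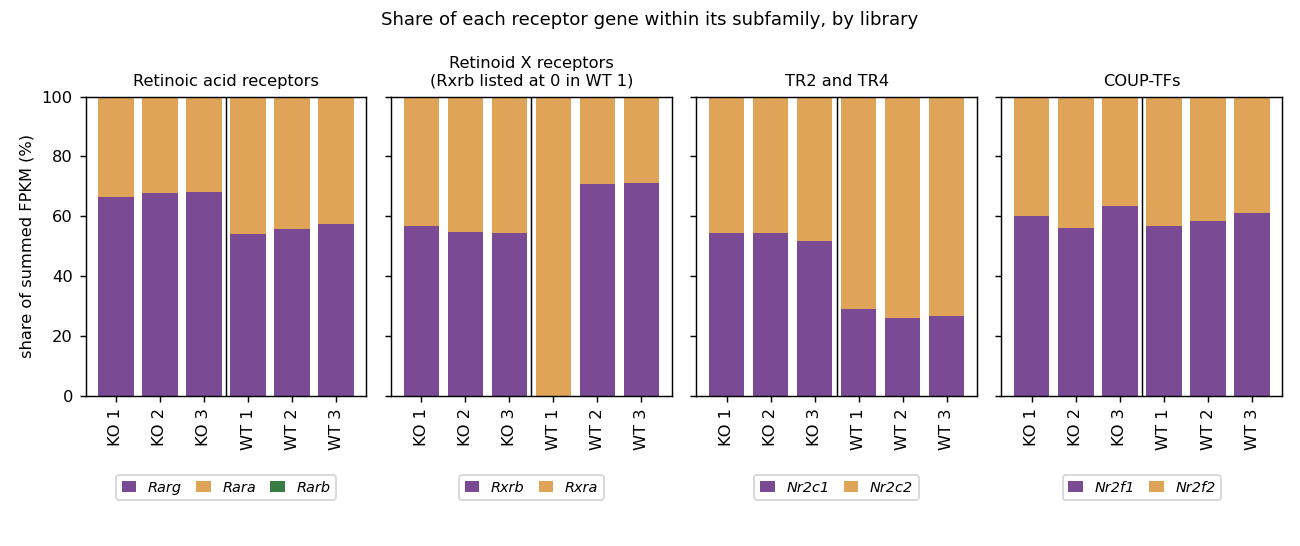
Share of each receptor gene in the FPKM sum of its subfamily, as stacked bars by library, with KO libraries left of WT libraries in each panel. Rara and Nr2c1 take different shares in KO and WT libraries, the split of Nr2f1 and Nr2f2 overlaps between the groups, and Rxrb is listed at 0 in WT replicate 1.

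Of 17 listed genes that make, move and break down retinoids 14 had a row of their own and 6 were tested. Of these 3 rose, 2 fell and 1 was not called, with a median log2 fold change of 0.57, beside 65.2% of all rows called. Rdh10, which carries out the first, rate-limiting oxidation of retinol, was at 14.2, 14.4 and 10.4 FPKM in KO libraries and 2.92, 2.61 and 2.8 FPKM in WT libraries, a 4.69-fold rise (limma adjusted p = 6.3e-05). Dhrs9, another retinol dehydrogenase, rose 3.09-fold, and Dhrs3, a retinaldehyde reductase that retinoic acid induces, rose 1.98-fold. Cyp26b1, which degrades retinoic acid, was at 0.553, 0.78 and 0.835 FPKM in KO libraries, against 6.49, 6.09 and 5.11 FPKM in WT libraries, a fall of 8.16-fold (limma adjusted p = 3.3e-05). The other retinoic acid hydroxylase genes were scarce and not tested: Cyp26a1 was at 0.186, 0.16 and 0.388 FPKM in KO libraries, against 0.0344, 0.0932 and 0 FPKM in WT libraries, and Cyp26c1 at 0.126, 0.256 and 0.0987 FPKM in KO libraries, against 0, 0.0316 and 0.0579 FPKM in WT libraries, both without overlap and higher in KO libraries. Rdh11, a retinal reductase, fell 3.27-fold. Stra6, the cell-surface retinol transporter, was at 0.696 ± 0.164 FPKM in KO cells and 0.42 ± 0.15 FPKM in WT cells (limma adjusted p = 0.115). Stra6, the tested gene that was not called, passed the filter on low values only through its KO level. The median above includes it. The retinaldehyde dehydrogenases that make retinoic acid were low or at 0: Aldh1a2 was listed at 0 throughout, Aldh1a1 was at 0.185, 0.078 and 0.193 FPKM in KO against 0.0293, 0.0264 and 0.0242 in WT libraries, and Aldh1a3 at 0.201 to 0.306 FPKM in KO and 0.263 to 0.327 in WT libraries.

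Promoter windows of 250 bases before the annotated RefSeq starts (GRCm38.p6) were available for 31 members, in 49 windows. The core motif AGGTCA, which most of these receptors recognise, was searched on both strands, overlaps allowed. It was found in 7 of 49 windows, belonging to 7 genes, and in 14.0% of all 32851 windows in the table. A repeat of GTTCA, spelled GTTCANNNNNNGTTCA and read on both strands, the form of the retinoic acid response element known from the Rarb promoter, was found in 1 member and in 0.067% of all windows. Neither motif was in the windows of Nr1h2, Nr2c1, Rora or Rara, or in the 1 window of Vdr. Rara and Vdr also changed clearly but are not shown. The windows below are shown for Rarb because of that element, for Rxra, the shared partner, because 1 of its starts holds the AGGTCA core in 2 places, as 1 start of Nr6a1 does, and for Nr1h2, Nr2c1 and Rora because these genes changed clearly and have 1 window each in the table. Capitals mark the motifs, windows without one are in lower case throughout, the sequences run 5′ to 3′ on the gene's strand, and a match is only a description of the letters.
Rarb, chr14:16575477-16575726, minus strand: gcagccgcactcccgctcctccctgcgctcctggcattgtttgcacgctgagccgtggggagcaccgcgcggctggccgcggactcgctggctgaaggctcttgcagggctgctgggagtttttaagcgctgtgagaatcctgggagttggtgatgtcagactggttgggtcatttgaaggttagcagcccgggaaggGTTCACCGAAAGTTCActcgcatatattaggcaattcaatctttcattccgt
Rxra, chr2:27709042-27709291, plus strand: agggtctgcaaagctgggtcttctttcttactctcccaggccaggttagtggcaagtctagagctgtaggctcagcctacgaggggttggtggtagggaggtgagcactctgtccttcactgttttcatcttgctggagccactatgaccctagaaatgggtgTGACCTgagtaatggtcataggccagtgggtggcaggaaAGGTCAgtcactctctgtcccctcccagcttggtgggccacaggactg
Nr1h2, chr7:44553966-44554215, minus strand: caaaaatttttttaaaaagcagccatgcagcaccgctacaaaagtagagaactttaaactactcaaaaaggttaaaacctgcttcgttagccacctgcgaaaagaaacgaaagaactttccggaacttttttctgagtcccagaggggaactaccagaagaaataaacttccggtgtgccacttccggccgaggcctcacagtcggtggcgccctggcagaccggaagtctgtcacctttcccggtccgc
Nr2c1, chr10:94147681-94147930, plus strand: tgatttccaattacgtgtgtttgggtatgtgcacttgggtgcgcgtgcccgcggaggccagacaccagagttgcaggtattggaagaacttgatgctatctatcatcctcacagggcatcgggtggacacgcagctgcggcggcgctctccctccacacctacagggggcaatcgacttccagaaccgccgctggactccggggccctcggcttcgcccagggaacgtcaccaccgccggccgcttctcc
Rora, chr9:68653536-68653785, plus strand: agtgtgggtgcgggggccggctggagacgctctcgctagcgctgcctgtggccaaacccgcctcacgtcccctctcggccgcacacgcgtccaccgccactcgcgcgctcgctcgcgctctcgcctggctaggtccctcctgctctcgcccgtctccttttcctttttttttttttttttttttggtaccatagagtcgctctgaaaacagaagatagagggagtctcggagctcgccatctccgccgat

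The element in the Rarb window begins at position -52 from the annotated start. In the Rxra window the core begins at positions -87 (reverse strand) and -48 (forward strand). G and C make up 58.0% of the Rarb window, 55.2% of the Rxra window, 48.4% of the Nr1h2 window, 62.0% of the Nr2c1 window and 61.2% of the Rora window. The deposited levels are sums over all starts of a gene and do not say which start was used.

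Among the 3 lipid-sensing receptors with a row, Ppard not being analysed here, the 1 that reached 1 FPKM was Nr1h2, which encodes LXR beta, the broadly expressed receptor for oxysterols. Nr1h2 (chromosome 7, 44549616 to 44553951) was at 25.8, 26.1 and 28.3 FPKM in KO libraries, against 49.1, 48.3 and 46.5 FPKM in WT libraries. No KO library came near a WT library, and the means differed 1.79-fold (log2 fold change -0.83, SE 0.050, limma adjusted p = 4.2e-05). Nr1h3, which encodes LXR alpha and shares its row with the transcript Gm13783, was at 0 in every SWELL1 KO replicate, against 0, 0.557 and 0.606 FPKM in WT replicates 1, 2 and 3. Ppara, the receptor of fatty acid oxidation in liver, was at 0.541, 0.2 and 0.35 FPKM in KO libraries, against 0.314, 0.236 and 0.193 FPKM in WT libraries, with overlapping ranges, and was not tested.

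Genes known to be induced by LXR moved both ways. Of 14 listed, 11 had their own row and 7 were tested. Of these 3 fell, 2 rose and 2 were not called (median log2 fold change -0.31), beside 65.2% of all rows called. The cholesterol exporter gene Abcg1 was at 0.288, 0.583 and 0.557 FPKM in KO libraries, against 4.9, 4.95 and 4.77 FPKM in WT libraries, a fall of 10.2-fold (limma adjusted p = 3.5e-05). Abcg1 passed the filter on low values only through its WT level, its KO mean being 0.476 FPKM. The phospholipid-remodelling enzyme gene Lpcat3 fell 2.21-fold and the exporter gene Abca1 1.55-fold. Mylip, which directs breakdown of the LDL receptor, rose 1.69-fold, and Fasn, the fatty acid synthase gene, rose 1.23-fold.

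Genes known as PPAR alpha or delta targets rose in 6 of 9 tested cases and fell in 1, out of 14 listed and 13 with a row (median log2 fold change 0.56), beside 28.5% of all rows called higher and 36.7% lower. Cpt1a, which controls fatty acid entry into mitochondria, was at 34.5, 31.1 and 28.5 FPKM in KO libraries and 5.69, 5.38 and 4.82 FPKM in WT libraries, a rise of 5.91-fold (limma adjusted p = 9.1e-06). Angptl4, a secreted lipase inhibitor, rose 3.49-fold, the lipid droplet coat gene Plin2 3.46-fold and the pyruvate dehydrogenase kinase gene Pdk4 3.02-fold. Fgf21, a secreted growth factor of fasting, was at 0.196, 0.581 and 1.03 FPKM in KO libraries, against 2.62, 2.95 and 3.8 FPKM in WT libraries, a fall of 5.19-fold (limma adjusted p = 0.00303). These genes answer to other regulators as well.

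The thyroid hormone receptor was present as Thra, with Thrb listed at 0. Thra (chromosome 11, 98740638 to 98769006) was at 58.4, 55.2 and 59.3 FPKM in KO libraries, against 58.3, 55.8 and 56.4 FPKM in WT libraries. The ranges overlapped and the log2 fold change was 0.02, with a 95% interval of -0.08 to 0.12 (limma adjusted p = 0.697). Under quantile normalization it was called higher, with a log2 fold change of 0.23. Thra shares 263 exonic bases with the oppositely transcribed clock receptor gene Nr1d1, which was at 7.87, 7.23 and 8.74 FPKM in KO libraries against 89.2, 80.5 and 84.3 FPKM in WT libraries. Of 10 listed genes of thyroid hormone handling and response all had a row and 3 were tested, all called, beside 65.2% of all rows. The malic enzyme gene Me1 rose 1.51-fold, while Klf9, a transcription factor gene, fell 3.19-fold and the corepressor gene Hr 3.15-fold. Hr passed the filter on low values only through its WT level, its KO mean being 0.448 FPKM. Dio1, which activates the hormone, was at 0 throughout, and Dio2, which does so in brown fat, was at 0.0967, 0.0974 and 0.0917 FPKM in KO libraries and at 0 in WT libraries.

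Vdr, the vitamin D receptor gene (chromosome 15, 97854425 to 97910630), was at 14.4, 15.8 and 16.5 FPKM in KO libraries, against 22.6, 22.5 and 23.1 FPKM in WT libraries. The groups did not overlap, and KO was 1.46-fold lower (log2 fold change -0.53, SE 0.057, limma adjusted p = 0.00041). Its most responsive target, Cyp24a1, which inactivates vitamin D, was listed at 0 in every library, as were Cyp2r1 and Trpv6. Of the 10 listed genes 9 had a row and 2 were tested: Spp1, which encodes osteopontin and is also a bone marker, fell 1.33-fold (limma adjusted p = 0.0029), and the other was Rxra.

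**Figure D3:**
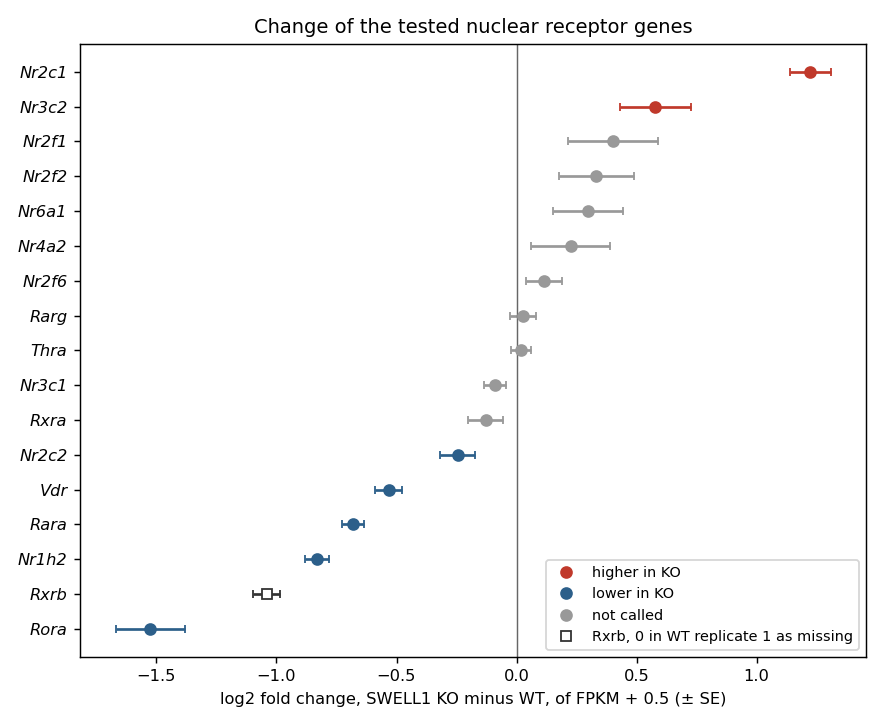
Log2 fold change of the 17 tested receptor genes, SWELL1 KO minus WT, with bars of ± SE from limma, ordered by size. Red and blue mark genes called higher or lower in KO, grey those not called, and the open square is Rxrb with the 0 of WT replicate 1 treated as missing.

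Of the steroid receptors, Nr3c1, which encodes the glucocorticoid receptor (chromosome 18, 39410545 to 39519421), was the abundant one. It was at 33.9, 32.3 and 31.1 FPKM in KO libraries, against 34.1, 35.5 and 33.9 FPKM in WT libraries, and the ranges overlapped (log2 fold change -0.09, 95% interval -0.20 to 0.03, limma adjusted p = 0.141). Nr3c2, the mineralocorticoid receptor gene, was low, at 0.631, 0.837 and 0.693 FPKM in KO libraries and 0.357, 0.215 and 0.385 FPKM in WT libraries. It was 2.26-fold higher in KO (log2 fold change 0.58, SE 0.15, limma adjusted p = 0.0157), with no overlap, but it passed the filter on low values only through its KO level. The call was lost with the replicate number as a block (adjusted p = 0.0578), and the gene fell below the filter when any KO library was left out. The oestrogen receptor gene Esr1 was at 0.13, 0.152 and 0 FPKM in KO libraries, against 0.00894, 0 and 0 FPKM in WT libraries, Esr2 was above 0 in KO replicate 3 alone (0.0183 FPKM), and the progesterone receptor gene Pgr was listed at 0 throughout.

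Around the glucocorticoid receptor, 16 genes of glucocorticoid activation and response were listed, of which 14 had a row and 10 were tested. Of these 5 fell, 4 rose and 1 was not called (median log2 fold change -0.55), beside 65.2% of all rows called. Hsd11b1, which regenerates active glucocorticoid inside the cell, was at 19.2, 18.6 and 16.9 FPKM in KO libraries and 7.53, 5.74 and 5.69 FPKM in WT libraries, a rise of 2.88-fold (limma adjusted p = 0.000129). Fkbp5, a co-chaperone that the receptor induces, was at 8.16 to 8.47 FPKM in KO libraries and at 17.7 to 18.3 FPKM in WT libraries, a fall of 2.16-fold (limma adjusted p = 9.0e-06). The clock gene Per1 fell 4.66-fold, the transcription factor gene Klf9 3.19-fold, the kinase gene Sgk1 1.95-fold and Lcn2, an iron-binding secreted protein gene, 5.94-fold. In the other direction Nfkbia, an inhibitor of NF-kappaB, rose 1.81-fold, the phosphatase gene Dusp1 1.74-fold and Tsc22d3, also called GILZ, 1.56-fold. All of these genes have other regulators too.

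Of 11 listed genes known for induction by oestrogen or progesterone, or for their synthesis, 10 had a row and 6 were tested. There were 3 falls, 1 rise and 2 genes not called (median log2 fold change -0.20), beside 65.2% of all rows called. Hsd17b11, a steroid dehydrogenase gene, rose 2.39-fold. Hsd17b7, an enzyme of oestradiol and cholesterol synthesis, fell 1.63-fold, Igfbp4 fell 1.27-fold, and Fkbp5 was the remaining fall. Greb1 and Tff1, known as direct oestrogen targets from human breast cancer cells, were not tested. Tff1 was at 0.648, 0.241 and 0.342 FPKM in KO libraries and listed at 0 in all WT libraries, Greb1 was at most 0.232 FPKM in any library, and the aromatase gene Cyp19a1 was listed at 0.

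Of the oestrogen-related receptors, orphan regulators of mitochondrial genes, Esrra was listed at 0 throughout, which may be a failed estimate, so its level is not known from this table. Esrrb was at 0, 0.0091 and 0.0129 FPKM in KO libraries, against 0.0281, 0 and 0.0464 FPKM in WT libraries. Esrrg was at 0.0426, 0.129 and 0.0404 FPKM in KO libraries and was listed at 0 in all WT libraries. Among 12 listed ERR target genes 11 were tested. Of these 3 fell, 1 rose and 7 were not called (median log2 fold change 0.09), beside 65.2% of all rows called. Sdhb, a succinate dehydrogenase subunit, fell 1.41-fold, the respiratory chain genes Cox5a and Uqcrc1 fell 1.24-fold and 1.23-fold, and the acyl-CoA dehydrogenase gene Acadm rose 1.49-fold. The calls of Cox5a and Uqcrc1 were lost under quantile normalization.

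The orphan receptors held both extremes of the change. Nr2c1, which encodes the testicular receptor TR2, a repressor and activator at direct repeats of AGGTCA (chromosome 10, 94148023 to 94197211), was at 7.84, 7.15 and 7.33 FPKM in KO libraries, against 3.17, 2.57 and 2.98 FPKM in WT libraries. The lowest KO library was above the highest WT library, and the means differed 2.56-fold (log2 fold change 1.22, SE 0.085, limma adjusted p = 7.3e-05). Its close relative and heterodimer partner Nr2c2, encoding TR4, was at 6.6, 5.96 and 6.86 FPKM in KO libraries, against 7.72, 7.34 and 8.22 FPKM in WT libraries. It was called lower (log2 fold change -0.25, SE 0.073, limma adjusted p = 0.026), without overlap, but the call was lost without KO replicate 1 or 2 or WT replicate 1 or 3 (adjusted p of 0.0524 to 0.0793) and under median-ratio scaling (adjusted p = 0.106). Nr2c2 shares 4590 exonic bases with the oppositely transcribed Mrps25, which was at 5.25, 5.2 and 5.37 FPKM in KO libraries and 6.11, 6.83 and 6.15 FPKM in WT libraries. Nr2c1 made up 54.3%, 54.6% and 51.6% of the sum of Nr2c1 and Nr2c2 in KO libraries, against 29.1%, 25.9% and 26.6% in WT libraries. Nr2c1 was thus the more abundant of the pair in each KO library and the less abundant in each WT library.

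Rora, a receptor that activates genes through a core motif next to an AT-rich stretch and that also feeds into the clock (chromosome 9, 68653786 to 69388246), was at 2.19, 2.34 and 2.38 FPKM in KO libraries, against 6.62, 6.83 and 9.56 FPKM in WT libraries. All KO libraries lay well below the lowest WT library, by 3.33-fold in the means (log2 fold change -1.53, SE 0.14, limma adjusted p = 0.00024). Nr4a3, an immediate early receptor gene, was at 0.0405, 0.0224 and 0.0559 FPKM in KO libraries, against 0.368, 0.283 and 0.447 FPKM in WT libraries, without overlap but below the filter and not tested. Its relative Nr4a2 was at 2.58, 2.97 and 3.68 FPKM in KO libraries, against 2.14, 2.44 and 3.12 FPKM in WT libraries, with overlap (log2 fold change 0.23, 95% interval -0.18 to 0.63, limma adjusted p = 0.271).

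The COUP transcription factor genes Nr2f1 and Nr2f2, regulators of mesenchymal fate that restrain adipogenesis in culture, were variable in KO cells. Nr2f1 was at 22.4, 13.2 and 18.7 FPKM in KO replicates 1, 2 and 3 and at 12.9, 14.2 and 12.8 FPKM in WT replicates 1, 2 and 3. KO replicate 2 lay within the WT range (log2 fold change 0.40, 95% interval -0.06 to 0.86, limma adjusted p = 0.109), and Nr2f1 was called higher without it (log2 fold change 0.61, adjusted p = 0.00515), while without KO replicate 1 the log2 fold change was 0.23 (adjusted p = 0.249). Nr2f2 was at 14.9, 10.3 and 10.8 FPKM in KO libraries, against 9.83, 10.0 and 8.16 FPKM in WT libraries, with every KO library above every WT library by a narrow margin (log2 fold change 0.33, 95% interval -0.06 to 0.72, limma adjusted p = 0.111). Without KO replicate 1 its log2 fold change was 0.17 (adjusted p = 0.207). The share of Nr2f1 in the pair overlapped between groups, at 59.8% ± 3.68 in KO and 58.8% ± 2.14 in WT. Nr2f6 was at 12.9, 12.0 and 13.9 FPKM in KO libraries, against 11.0, 12.5 and 12.2 FPKM in WT libraries (log2 fold change 0.12, limma adjusted p = 0.221), and was called higher under both rescalings tried. Its exons share 1622 bases with the oppositely transcribed Ocel1. Nr6a1, an orphan receptor of germ cells and early embryos, was at 2.41, 2.44 and 2.54 FPKM in KO libraries, against 2.49, 1.63 and 1.71 FPKM in WT libraries (log2 fold change 0.30, limma adjusted p = 0.121), and was called higher without WT replicate 1 (adjusted p = 0.00718). Nr5a2 was at most 0.0144 FPKM in any library.

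Receptors act through coregulators, and these were broadly present. Of 12 tested coactivator genes (15 listed, 13 with a row) 4 fell, 3 rose and 5 were not called, beside 65.2% of all rows called. The median log2 fold change was 0.09. Med1, the Mediator subunit that contacts nuclear receptors, was at 7.47, 7.35 and 7.7 FPKM in KO libraries, against 14.5, 15.8 and 16.1 FPKM in WT libraries, a fall of 2.06-fold (limma adjusted p = 3.1e-05). The p160 coactivator genes Ncoa1 and Ncoa3 fell 1.99-fold and 1.32-fold. Ncoa7 rose 3.51-fold, the acetyltransferase gene Ep300 1.69-fold and Ncoa4 1.28-fold. Ppargc1a, the PGC-1 alpha coactivator gene of mitochondrial programmes, was at 0.626, 0.965 and 0.434 FPKM in KO libraries, against 0, 0.0158 and 0 FPKM in WT libraries, and was not tested.

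Of 9 tested corepressor genes (11 listed) 4 rose, 3 fell and 2 were not called, beside 65.2% of all rows called. The median log2 fold change was also 0.09. Gps2, a subunit of a nuclear receptor corepressor complex, was at 18.2, 19.1 and 14.5 FPKM in KO libraries, against 6.99, 7.37 and 7.1 FPKM in WT libraries, a rise of 2.41-fold (limma adjusted p = 0.000187). Nrip1 rose 1.67-fold and the deacetylase gene Hdac3 1.48-fold. Ncor1 was at 32.3, 43.7 and 47.7 FPKM in KO libraries, against 31.9, 53.7 and 41.0 FPKM in WT libraries (limma adjusted p = 0.943). Hr, which passed the filter on low values only through its WT level, fell 3.15-fold, the demethylase gene Kdm1a 1.28-fold and Tbl1xr1 1.10-fold. The Kdm1a call was lost under quantile normalization, and that of Tbl1xr1 under both rescalings, with the block and in 5 of the 6 fits that left out a library (adjusted p of 0.0653 to 0.44).

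Of the 15 other nuclear receptor genes listed, 14 had a row, and the 4 that were tested were all called lower (median log2 fold change -2.01), beside 36.7% of all rows, though Pparg passed the filter on low values only through its WT level. Nr1d1 fell 10.7-fold and Nr1d2, the other REV-ERB gene, 1.53-fold. The immediate early gene Nr4a1 was at 17.7, 22.7 and 49.7 FPKM in KO libraries, against 119.8, 123 and 129 FPKM in WT libraries, a fall of 4.13-fold (limma adjusted p = 0.00291). Pparg, the master regulator of fat cell formation, was at 0.182, 0.0689 and 0.13 FPKM in KO libraries, against 2.49, 1.96 and 1.05 FPKM in WT libraries (limma adjusted p = 0.00136). The other 10, among them Hnf4a, Nr1h4 and Nr1i3, stayed at or below 0.056 FPKM in every library.

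**Figure D4:**
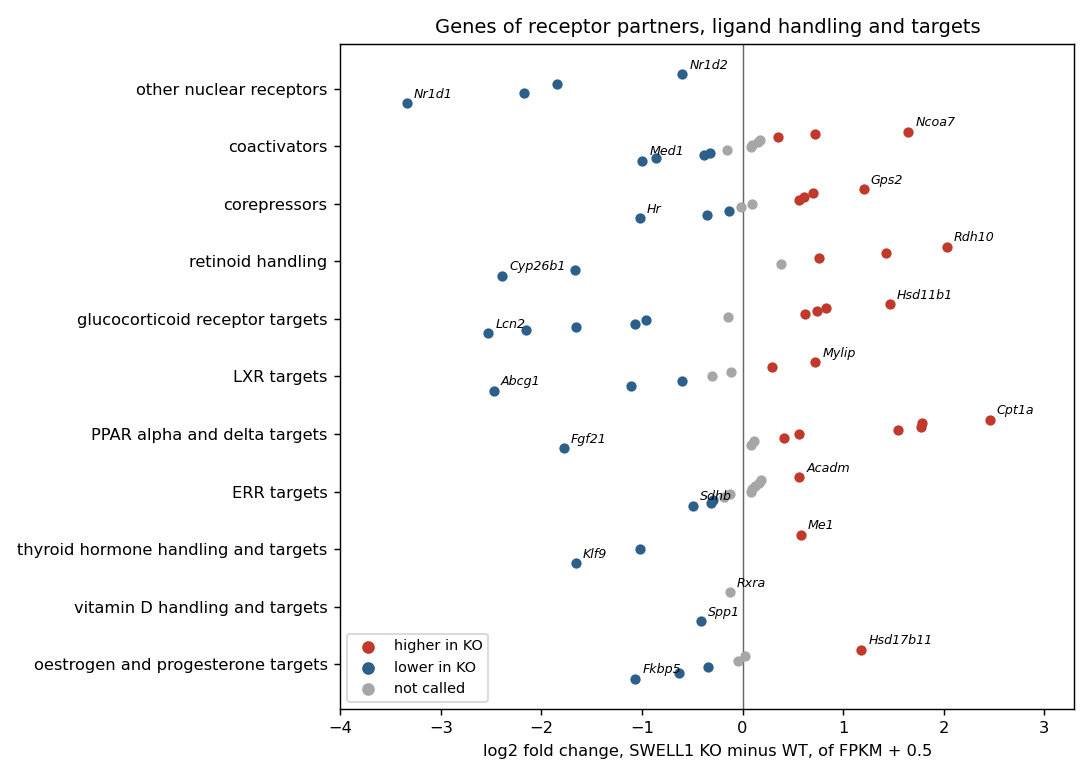
Log2 fold change, SWELL1 KO minus WT, of each tested gene in the 11 lists of receptor partners, ligand handling and target genes, with red for genes called higher in KO, blue for lower and grey for those not called. The gene lowest and the gene highest in each list are named, and most lists hold calls on both sides of 0.

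Counting each gene once, the 11 lists held 74 tested genes outside the 33 receptors, of which 24 were called higher, 28 lower and 22 neither, with a median log2 fold change of 0.05. The share called was 70.3%, near the 65.2% of all rows tested.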

How the data were processed

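Levels came from 1 table of 31097 rows with a value for each of 6 libraries, 3 SWELL1 KO and 3 WT. The deposited values are FPKM by inference, since no header names the unit. Per the submitters' processing notes the authors used TopHat, Cufflinks 2.02 and the build GRCm38; these sources state neither annotation release nor strand setting. Cufflinks divides a gene's fragments among transcripts, which can leave a gene at 0 beside a high value in a sister library.

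The 33 members and the gene lists were chosen with earlier results of these data known. Rows shared with other coding genes were not used, and genes without such a row were not analysed here. The 10515 rows averaging 0.5 FPKM or higher entered limma 3.58.1 (R 4.3.3) as log2(FPKM + 0.5) with a mean-variance trend, 2-sided tests, Benjamini-Hochberg adjustment over all of these rows and a threshold of 0.05. Presence meant a group mean of at least 1 FPKM. Intervals are 95%. Every member with a group mean of at least 1 FPKM is given with its values. From each list the called genes with the 3 largest changes in each direction are named, among rows with no library at 0, together with ligand-making and direct target genes the list is known for, and a few listed genes are not reported here by name.

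Depth was estimated from the lowest values of 1237 genes that have only 1 annotated transcript, 2500 bases or longer. Values under 1 FPKM can rest on few fragments, fewer for short transcripts. If all fragments came from the longest annotated transcript, Nr3c2 would rest on about 71.5 to 128.6 fragments in KO libraries. Nr4a3 would rest on about 31.0 to 53.2 in WT libraries and 3.3 to 5.9 in KO libraries. Tested on simulated data with 200 of 10515 genes changed, the KO against WT fit recovered 62.7% of 1.5-fold, 89.6% of 2-fold and 98.5% of 4-fold changes, and 6.18% of its calls were false. These rates hold for that simulated setting only, since 65.2% of rows were called in the data. Between libraries of a group, 26.2% to 32.8% of well-expressed genes (10 FPKM or more) lay over 10% apart, so no library was a copy of another. Gene positions are from GENCODE M21 (GRCm38) and promoter windows from RefSeq (GRCm38.p6). Alternatives were other pseudocounts and filters, median-ratio and quantile scaling, a robust prior, the replicate number as a block, each library left out, and, chosen after seeing the data, zeros beside 5 FPKM or more in the same group read as missing.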

Additional observations from a re-analysis of the deposited data

How the results depend on the processing

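Rara, Rora, Vdr and Nr1h2 stayed lower and Nr2c1 higher in KO, past the threshold, under all 15 alternatives tried. The count of members called higher, 2 in the reported fit, was 1 with a filter at a mean of 1 FPKM, which removes Nr3c2, 5 with quantile normalization, 1 with the replicate number as a block, and 1 to 3 when a library was left out. The count called lower, 5, was 4 to 6. Rxrb turned round, to a log2 fold change of -1.04 with its 0 treated as missing and -1.04 without WT replicate 1, and its values with a library left out ran from -1.04 to 2.29. Of 251 member values under alternatives, 237 kept their call and direction, 6 lost the call, 6 gained one and 2 reversed. Of 1107 values of the listed pathway genes, 1066 kept theirs, 15 lost the call, 26 gained one and 0 reversed. With no filter on low values 26 members were tested and 2 calls were added: Rarb higher (log2 fold change 0.21, limma adjusted p = 0.00834) and Nr4a3 lower (-0.68, limma adjusted p = 0.00107). The median of all rows was -0.07 as deposited, 0.01 after median-ratio scaling and -0.00 after quantile normalization, and both scalings turned the balance of all calls, which as deposited were more often lower, to 3500 higher and 3343 lower with median-ratio scaling and 3423 higher and 3386 lower with quantile normalization. The counts of all rows and of pathway genes called stayed within 1.5 times under every alternative.

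Same-numbered KO and WT libraries did not deviate together, with correlations of 0.00, 0.01 and -0.09 across genes, beside -0.06 to 0.05 for other pairs. Such values cannot show whether same-numbered libraries shared a culture or day, which the labels do not state. With the replicate number as a block Nr3c2 was not called (limma adjusted p = 0.0578) and no other member's call changed.

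Values below 0.5 FPKM can rest on few fragments, and most scarce receptors were not tested because of the filter on low values.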
